A study of Mus musculus with 6 samples.

Results

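Imprinted genes are expressed mainly from the copy inherited from a given parent. The list examined here held 36 mouse imprinted genes, chosen by symbol, of which 34 were found in the table of 26264 genes. Of these, 11 are known as maternally expressed, 21 as paternally expressed and 2, Grb10 and Gnas, have no single class at the level of the whole gene. In total 28 passed the filter on low counts, as did 14554 genes of the series. Nespas and Dhcr7-as were not analysed here. RNA was sequenced from neural stem cells of C57BL6J mouse spinal cord, grown with EGF and FGF2 and sorted by fluorescence for a Pdgfra-driven GFP reporter. The GFP-positive cells are labelled PDGFRaGFP/+ and the GFP-negative cells PDGFRaGFP/-, with 3 libraries each, and age and number of animals were not given in the sources used here. The titles number the libraries 314, 315 and 316 in both fractions, called replicates 1, 2 and 3 here, and values are given in that order. Counts were summed over both alleles and the background is an inbred strain, so no value below says which parental copy was read.

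As background, the imprint is DNA methylation set in the germ line at control regions, and it is kept through cell division by DNA methyltransferases and by zinc finger proteins such as ZFP57 with its partner TRIM28. Imprinted genes lie in clusters, where a long noncoding RNA or an insulator often keeps neighbouring genes silent on the same chromosome. Many of them act on growth, and several, such as Dlk1, Cdkn1c and Igf2, are known for roles in neural stem cells.

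Pdgfra, the receptor whose promoter drives the reporter, stood at 237, 205 and 245 CPM (counts scaled to library size with TMM factors) in GFP-positive cells and at 8.04, 19.3 and 13.9 CPM in GFP-negative cells. Library totals lay between 31067850 and 45207335 counts. The stem cell markers Nes, Sox2 and Vim were present in every library but lower in GFP-positive cells, as were 6 of 8 listed stem cell markers in all, with 1 higher. All 9 listed astrocyte markers were lower and all 9 listed oligodendrocyte precursor markers higher. All 5 tested neuron markers, Map2, Nefm, Snap25, Rbfox3 and Syt1, were also higher, and the summed level of the 8 listed was 3964 to 4457 CPM against 1556 to 1808 CPM, nearly all from Map2. The neuron genes Stmn2, Slc17a6 and Slc32a1 stood at 0.255 CPM or less in every library. The part of these cell type markers in the differences of imprinted genes was not tested. Replicate 2 stood apart for some markers, mainly precursor markers in GFP-negative cells and astrocyte markers in GFP-positive cells. In GFP-negative cells 8 of the 9 precursor markers were highest there and Cspg4 lowest. The rise was largest for Sox10 (12.5 CPM against 2.34 and 3.53) and C1ql1 (14.3 against 4.40 and 5.18). Of the 9 astrocyte markers, only Aldh1l1 was highest there (121 against 15.2 and 26.9), and 3 were lowest. In GFP-positive cells 4 of the 9 precursor markers were highest in replicate 2, Sox10 among them (93.6 against 39.4 and 45.4 CPM). Another 4 were lowest there, Pdgfra among them (205 against 237 and 245 CPM). Of the 9 astrocyte markers, 7 were highest in that library and 1 lowest. The shares over all genes were not computed for these marker counts. Among the 20 imprinted genes that passed the test between fractions the GFP-negative library of replicate 2 was the one nearest to the GFP-positive mean for 12, or 60%, against 56.9% of the 8058 genes called in the whole table.

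Stretches of promoter of some members are shown here as a description, 5′ to 3′, from RefSeq on build GRCm38.p6. That build is not the mm39 build named for the counting. Meg3 and Nap1l5 had higher RNA, and Mest lower RNA, in GFP-positive cells, and each stretch was also one that holds the motif marked below. Each is the 250 bases upstream of an annotated start, Meg3 at chr12:109540746-109540995 (plus strand), Nap1l5 at chr6:58907127-58907376 (minus strand) and Mest, at the more downstream of its start regions, at chr6:30737800-30738049 (plus strand). Capitals mark TGCCGC, the motif that ZFP57 recognises when methylated, read on either strand.
Meg3: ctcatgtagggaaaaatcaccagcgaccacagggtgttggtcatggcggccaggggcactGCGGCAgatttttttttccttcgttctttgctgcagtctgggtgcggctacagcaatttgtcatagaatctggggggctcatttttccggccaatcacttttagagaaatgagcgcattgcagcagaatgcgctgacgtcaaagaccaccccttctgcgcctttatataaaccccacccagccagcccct
Nap1l5: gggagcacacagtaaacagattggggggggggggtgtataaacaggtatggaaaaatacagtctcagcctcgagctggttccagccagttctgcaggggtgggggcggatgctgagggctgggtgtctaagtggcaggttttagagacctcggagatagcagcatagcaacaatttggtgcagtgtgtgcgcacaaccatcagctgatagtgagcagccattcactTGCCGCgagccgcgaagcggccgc
Mest: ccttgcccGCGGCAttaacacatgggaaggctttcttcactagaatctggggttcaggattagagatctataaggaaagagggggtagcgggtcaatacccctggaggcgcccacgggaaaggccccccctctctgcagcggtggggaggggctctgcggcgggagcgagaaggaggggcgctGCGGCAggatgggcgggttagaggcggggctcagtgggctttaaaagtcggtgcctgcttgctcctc
The fourth stretch lies between the divergent starts of Peg3 (minus strand) and Usp29 (plus strand), at chr7:6730420-6730582, given on the plus strand, and is shown because these neighbours moved in opposite directions. It has 163 bases and no match.
Peg3-Usp29: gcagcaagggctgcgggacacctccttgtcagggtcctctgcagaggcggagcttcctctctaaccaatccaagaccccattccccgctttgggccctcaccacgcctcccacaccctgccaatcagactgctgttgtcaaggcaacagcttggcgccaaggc

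Promoter windows were used for 27 of the 36 genes, 41 windows of 250 bases in all, and 9 genes had none used. TGCCGC was present in 6 of them (14.6%), those of Meg3, Nap1l5, Plagl1, Zim1 and the downstream pair of overlapping Mest windows, against 8.68% of 32851 windows in the table. GCCATNTT, a core of the YY1 motif, also searched on both strands, was present in 2 windows (4.88%), those of Mkrn3 and Ube3a, against 3.91% of all windows. None of the printed stretches holds GCCATNTT. The median ratio of observed to expected CpG was 0.584 in the windows of imprinted genes and 0.374 in all windows. Of the windows of members called higher, 2 of 14 held TGCCGC, and of those called lower, 4 of 11. Most windows of called members therefore had no match, and the printed ones do not stand for them. A match describes these letters and is not a binding site, and its part in the RNA differences was not tested.

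Between the fractions, imprinted genes changed in both directions, and they did so in both parental classes. Of the 28 tested, 11 were higher and 9 lower in GFP-positive cells by edgeR's quasi-likelihood test with Benjamini-Hochberg adjustment over all genes. The share called in the whole table was 55.4%, with 26.1% higher and 29.2% lower, and 71.4% among the imprinted genes. The CPM of the fractions did not overlap for 20 of the 28, 11 above and 9 below, where 64.2% of all genes did not overlap, 31.3% above and 33% below. The median log2 fold change (GFP-positive minus GFP-negative throughout) was -0.014, against -0.0058 for all genes, and the median size regardless of sign was 0.74 against 0.36. Called changes above 1 on the log2 scale were found for 8 members, where 18.3% of all genes had one.

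Of the 7 maternally expressed genes tested, 3 were higher (Meg3, Rian and Ube3a) and 2 lower (Zim1 and H19), with a median log2 fold change of 0.01. Of the 19 paternally expressed genes tested, 8 were higher and 6 lower, with a median of 0.08. The 8 were Snrpn, Peg13, Mkrn3, Usp29, Nap1l5, Nnat, Kcnq1ot1 and Inpp5f, and the 6 were Rasgrf1, Mest, Peg10, Plagl1, Peg3 and Sgce. Without Ube3a, Trappc9 and Igf2r, whose imprinting differs between tissues, 2 maternally expressed genes were higher and 2 lower. In bulk RNA, a difference in the share of cells that express a gene and in RNA per cell cannot be told apart.

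**Figure D1:**
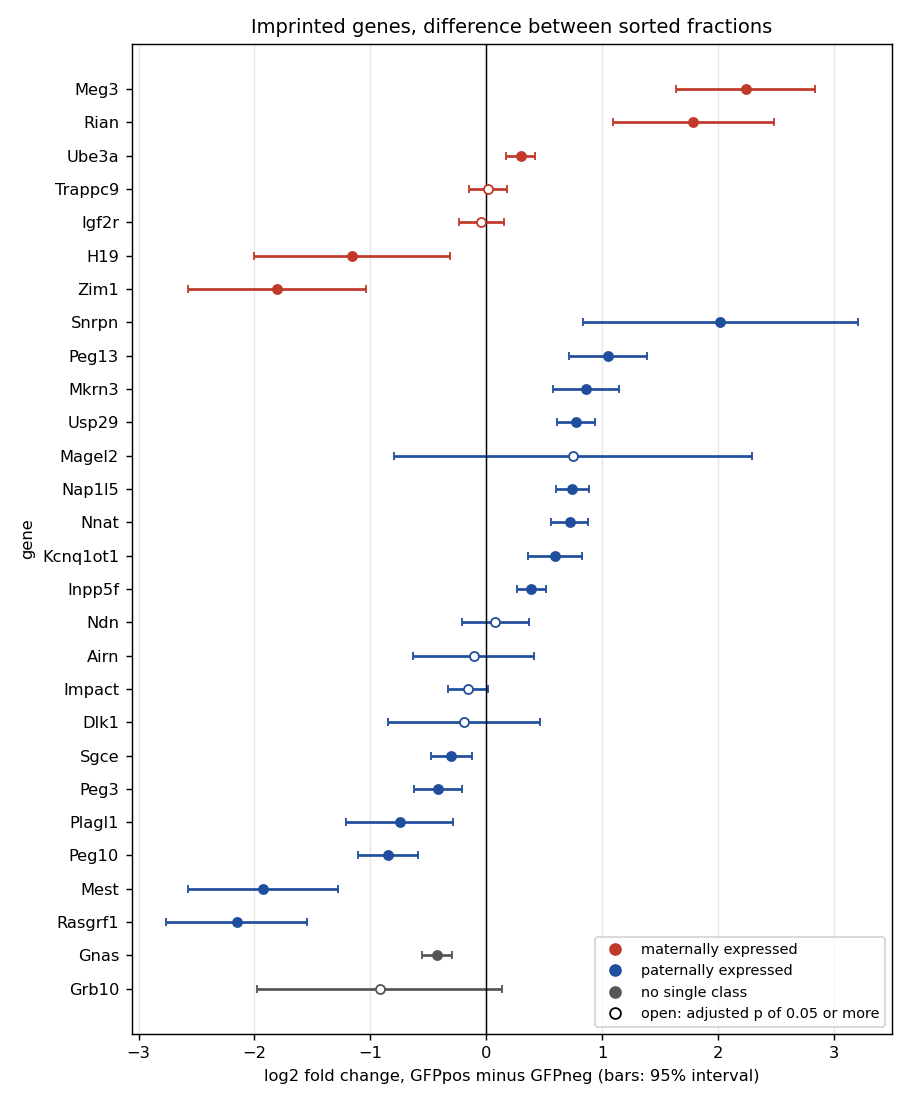
Log2 fold change of the 28 tested imprinted genes (horizontal axis, GFP-positive minus GFP-negative, 3 libraries each), with bars for 95% intervals and open symbols where the adjusted p was 0.05 or more. Maternally expressed genes run from Meg3 at 2.24 to Zim1 at -1.80, and paternally expressed genes from Snrpn at 2.02 to Rasgrf1 at -2.15.

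Of the noncoding RNAs of the Dlk1-Meg3 cluster, Meg3 and Rian rose in GFP-positive cells, Meg3 by the most of all tested members, and Mirg was not tested. Meg3, a maternally expressed long noncoding RNA, was at 19.9, 21.1 and 13.8 CPM in GFP-positive cells and at 3.25, 5.48 and 2.88 CPM in GFP-negative cells. Every GFP-positive library lay above every GFP-negative library, and the log2 fold change was 2.24 (SE 0.26, edgeR adjusted p = 0.000198), a 4.72-fold difference. Rian, which lies downstream of Meg3 and hosts small nucleolar RNAs and microRNAs, was at 12.97, 9.54 and 8.11 against 2.76, 4.24 and 1.85 CPM. Its groups did not overlap either, with a log2 change of 1.79 (SE 0.30, edgeR adjusted p = 0.00135). Mirg, the last noncoding RNA of the cluster and host of further microRNAs, was below the filter, with 6, 6 and 3 counts against 0, 2 and 1.

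Of the paternally expressed protein-coding genes of the same cluster, Dlk1 alone was tested, and it did not pass. Dlk1, a transmembrane protein of the Notch ligand type, was low in all libraries, at 0.981, 0.795 and 1.01 against 1.33, 0.988 and 0.843 CPM. Its groups overlapped, and the log2 fold change of -0.19 had a 95% interval from -0.85 to 0.47 (edgeR adjusted p = 0.597). Rtl1, a gene derived from a retrotransposon, had between 0 and 6 counts in each library and was not tested. The ratio of Dlk1 to Meg3 counts within a library, which does not depend on the scaling between libraries, was 0.05003, 0.0382 and 0.0738 in GFP-positive cells and 0.414, 0.183 and 0.296 in GFP-negative cells. The groups were apart in that ratio. Its exact permutation p was 0.1, the smallest that 3 against 3 libraries allow, and 0.158 when adjusted over the 19 pairs of cluster neighbours compared.

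In the Peg3 cluster, the divergently transcribed neighbours changed in opposite directions. Peg3, a paternally expressed zinc finger protein, was at 345, 350 and 352 CPM in GFP-positive cells and 511, 399 and 485 CPM in GFP-negative cells. The GFP-positive libraries were close together, with a coefficient of variation of 0.980%, and all lay below the GFP-negative ones, which spread by 12.6%. The log2 fold change was -0.41 (SE 0.09, edgeR adjusted p = 0.00475), and the call was lost without replicate 1 (adjusted p = 0.0586) and without replicate 3 (0.0633). Usp29, a ubiquitin-specific protease gene also read from the paternal copy, was at 33.3, 33.7 and 31.9 against 19.8, 19.4 and 18.6 CPM. It was higher in each GFP-positive library, with a log2 change of 0.78 (SE 0.07, edgeR adjusted p = 5.36e-05).

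The ratio of Peg3 to Usp29 counts within a library was apart between the fractions. It comes from the same counts as the fold changes and is no further support, and a ratio does not say which gene moved. There were 10.4, 10.4 and 11.0 Peg3 counts per Usp29 count in GFP-positive cells and 25.8, 20.6 and 26.1 in GFP-negative cells (exact permutation p = 0.1, adjusted p = 0.158). These are ratios of counts and not of levels per length. Zim1, the maternally expressed zinc finger gene of the cluster, was at 1.03, 1.04 and 1.79 CPM in the positive fraction and 4.73, 2.87 and 5.90 CPM in GFP-negative cells. Its groups did not overlap, and at a log2 change of -1.80 (SE 0.33, edgeR adjusted p = 0.00225) it fell further than Peg3. Peg3os, an antisense RNA of the locus, had a log2 change of -0.62 and did not pass the test (edgeR adjusted p = 0.249).

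Mest, a paternally expressed gene for a hydrolase-like membrane protein, had the largest decrease among the strongly expressed members. It was at 133, 106 and 136 CPM in GFP-positive cells and at 658, 274 and 492 CPM in GFP-negative cells. All GFP-positive libraries lay below all GFP-negative ones, which varied more among themselves, with a coefficient of variation of 40.6% against 13.4%. The log2 fold change was -1.92 (SE 0.28, edgeR adjusted p = 0.000651), and it lay between -2.19 and -1.61 over all alternatives run. The microRNA gene Mir335, which lies within Mest and was singled out after its values were seen, had 9, 11 and 11 counts against 45, 21 and 29. Its log2 fold change was -1.91 (SE 0.38, edgeR adjusted p = 0.00318). Gene counts of this kind do not measure the mature microRNAs. The mature sequences are shown for reference, with the seed, bases 2 to 8, in capitals.
mmu-miR-335-5p: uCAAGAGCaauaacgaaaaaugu
mmu-miR-335-3p: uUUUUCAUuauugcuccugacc

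Peg10 and Sgce, paternally expressed neighbours that also share a divergent start region, were both lower. Peg10, a retrotransposon-derived gene whose protein forms capsid-like particles, was at 92.7, 87.8 and 82.3 against 188, 147 and 138 CPM, a log2 change of -0.85 (SE 0.11, edgeR adjusted p = 0.000418). Sgce, which encodes epsilon-sarcoglycan, was at 31.4, 30.7 and 30.5 against 37.3, 41.4 and 35.2 CPM. Its decrease was smaller, at -0.30 (SE 0.08, edgeR adjusted p = 0.0104), and was lost without replicate 1 (adjusted p = 0.0699). Neither gene's groups overlapped. Asb4, a maternally expressed gene of the cluster, had 3, 8 and 7 counts against 17, 7 and 20 and was not tested.

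The H19-Igf2 and Igf2r-Airn clusters hold regulators of growth through IGF2. Igf2, the paternally expressed growth factor, was barely detected, with 1 count in all GFP-positive and 2 counts in all GFP-negative libraries. H19, the maternally expressed noncoding RNA beside it, was at 2.62, 1.39 and 1.33 against 5.34, 2.39 and 4.15 CPM. The groups overlapped, since the first GFP-positive library lay above the second GFP-negative one. Within each title number, H19 was lower in the GFP-positive library. The log2 fold change of H19 was -1.16 (SE 0.37, edgeR adjusted p = 0.0269). The call was lost without GFP-negative replicate 1 (adjusted p = 0.0979), GFP-negative replicate 3 (0.0687), GFP-positive replicate 2 (0.0909) or 3 (0.0918), and without replicate 3 in both (0.177). H19 is a gene of mesenchymal cells too. Of 14 listed fibroblast, meningeal and mural markers, Col1a2, Lum, Pdgfrb, Rgs5, Acta2 and Dcn stood at 0.414 CPM or less in every library. The summed level of the 14 was 391 to 447 CPM in the positive fraction and 325 to 378 CPM in GFP-negative cells, mostly from Cspg4, which precursors also express, and Fn1. Fn1, at 6.84 ± 2.99 against 123 ± 11.7 CPM (SD, n = 3), and the collagen gene Col1a1, at most 1.30 CPM in any library, were lower in GFP-positive cells. Col3a1 varied widely, at 0.0272, 9.18 and 1.11 against 0.758, 101.7 and 20.6 CPM, and did not pass the test (edgeR adjusted p = 0.0801), though it did with the title number as a block (edgeR adjusted p = 9.74e-07). The Col1a1 call was lost without replicate 3 (adjusted p = 0.059). The part of these genes in the H19 difference was not tested.

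Igf2r, the receptor that removes IGF2, was at 59.7, 63.4 and 59.1 CPM in the positive fraction and 65.5, 54.7 and 67.3 CPM in GFP-negative cells, with overlapping groups. Its log2 fold change was -0.04, with a 95% interval from -0.24 to 0.15 (edgeR adjusted p = 0.701). Airn, the paternally expressed antisense RNA at the same locus, was at 1.66, 2.27 and 2.42 against 2.64, 2.17 and 2.04 CPM. It did not pass the test either, at -0.11 with an interval from -0.63 to 0.42 (edgeR adjusted p = 0.713). The strand setting of the counting is not given, so reads of Igf2r and Airn where they overlap may be mixed. Grb10, an adaptor that restrains insulin and IGF receptor signalling, was at 14.8, 8.63 and 15.1 against 35.9, 8.54 and 28.2 CPM.

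Grb10 was lowest in replicate 2 of both fractions, and its groups overlapped there. The log2 fold change was -0.92 (SE 0.46, edgeR adjusted p = 0.123). With the title number as a block it was -0.76 and passed (edgeR adjusted p = 0.0136), and without the GFP-negative library of replicate 2 it was -1.32 (0.00071). Plagl1, a paternally expressed zinc finger factor known as a regulator of other imprinted genes, was at 4.11, 4.04 and 4.13 against 6.25, 5.39 and 8.98 CPM. It was lower in each GFP-positive library, by a log2 change of -0.75 (SE 0.20, edgeR adjusted p = 0.0134), and the call was lost without replicate 1 (adjusted p = 0.0717) and without replicate 3 (0.0993).

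The other genes of the IGF axis, taken as a list of 21 symbols, were lower in 7 and higher in 4 of 16 tested cases, 68.8% called in all, with a median log2 fold change of -0.47. Over all genes 55.4% were called, 29.2% lower and 26.1% higher, and nothing particular to the list is read from its count. The higher count was 1 without replicate 1, and 2 without replicate 3 or without GFP-positive replicate 3. The decreases were led by the IGF binding proteins. Igfbp2 was at 26.7 ± 3.94 CPM in the positive fraction and 447 ± 57.1 CPM in the negative ones (SD, n = 3), and Igfbp4 at 21.9 ± 0.998 against 301 ± 131 CPM (SD, n = 3). Irs1, a docking protein of both receptors, had a log2 change of -1.001. Irs4, a related docking protein, was higher by 2.77, the insulin receptor Insr by 0.27 and Igf2bp2, an RNA-binding protein, by 0.32. The Insr call was lost without replicate 1 (adjusted p = 0.0727), and that of Igf2bp2 without GFP-positive replicate 3 (0.0573), without replicate 1 (0.0633) and without replicate 3 (0.125). Igf1 itself was not tested, at 0.152 CPM or less in every library.

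Of the 5 tested genes of the Snrpn-Ube3a cluster, 3 were higher and none lower. That is 60% called, near the 55.4% over all genes, so nothing particular to the cluster is read from the count. Mkrn3, a paternally expressed ubiquitin ligase gene, was at 11.4, 10.2 and 11.7 against 6.73, 5.45 and 6.16 CPM, with a log2 change of 0.86 (SE 0.12, edgeR adjusted p = 0.000603). Ube3a, the ubiquitin ligase read from the maternal copy in neurons, was at 317, 306 and 315 against 251, 267 and 244 CPM. The increase was small next to its counts, at 0.30 (SE 0.05, edgeR adjusted p = 0.00196), and no GFP-positive library overlapped a GFP-negative one. Snrpn, which encodes a splicing protein, had 17, 15 and 29 counts against 4, 3 and 5. Its log2 fold change was 2.02 (SE 0.51, edgeR adjusted p = 0.0105), and the call was lost without replicate 1 (adjusted p = 0.0656) and without replicate 3 (0.0665). Snurf, which shares exons with Snrpn, was at 0 counts in every library, so the Snrpn value is uncertain.

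Ndn and Magel2, paternally expressed genes of the MAGE family, did not pass the test. Ndn was at 54.8, 54.5 and 42.0 against 54.6, 44.4 and 44.1 CPM, with overlapping groups and a log2 change of 0.08 (95% interval -0.21 to 0.37, edgeR adjusted p = 0.617). Magel2 had 15, 12 and 25 counts against 2, 7 and 16, and its interval was wide, from -0.80 to 2.29 (edgeR adjusted p = 0.375). Snhg14, the long paternally expressed RNA that runs antisense to Ube3a, is no member of the list and was higher by 1.17 (SE 0.14, edgeR adjusted p = 0.000193), at 31.3 ± 0.360 against 13.9 ± 2.69 CPM (SD, n = 3). Without a stated strand setting, reads of Snhg14 and Ube3a where they overlap cannot be told apart.

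Kcnq1ot1, a paternally expressed noncoding RNA that silences its neighbours in cis, was at 485, 510 and 472 CPM in the positive fraction and 281, 376 and 314 CPM in GFP-negative cells. The fractions did not overlap, and the log2 fold change was 0.60 (SE 0.10, edgeR adjusted p = 0.00143). The transcript is very long, and its level per kilobase of exon was 5.25 against 3.48 CPM. Phlda2 and Slc22a18, maternally expressed genes of the cluster, had at most 2 counts in any library and were not tested. Cdkn1c, the maternally expressed cell cycle inhibitor of the same cluster and no member of the list, was at 61.7, 84.8 and 68.5 against 7.43, 17.6 and 7.19 CPM. It rose by 2.74 on the log2 scale (SE 0.33, edgeR adjusted p = 0.000226), with its highest GFP-negative value in replicate 2 and its highest GFP-positive value there too. Of the 28 tested members, 9 had their highest GFP-negative value in replicate 2, Meg3 and Rian among them, and 10 their lowest, among them Mest, Grb10, H19 and Zim1. In GFP-positive cells 8 were highest and 11 lowest in replicate 2, Meg3 again among the former and Mest and Grb10 among the latter. The share over all genes was not computed, so nothing particular to the members is read from these counts. The part of the precursor and astrocyte markers that stood apart in that replicate was not tested. Without the GFP-negative library of replicate 2 the log2 fold change of Meg3 was 2.58 and that of Mest -2.19.

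The paternally expressed genes Nnat and Nap1l5 lie inside introns of other genes, and both were higher. Nnat, a small membrane protein of the endoplasmic reticulum, was at 326, 336 and 371 against 212, 196 and 218 CPM, a log2 change of 0.72 (SE 0.07, edgeR adjusted p = 7.34e-05). Nap1l5, a nucleosome assembly protein relative, was at 218, 206 and 208 against 123, 135 and 120 CPM, with a log2 change of 0.74 (SE 0.06, edgeR adjusted p = 3.32e-05). Their host genes did not pass the test. Blcap, around Nnat, had a log2 change of 0.12 (edgeR adjusted p = 0.194), and Herc3, around Nap1l5, one of 0.05 (0.672).

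Peg13, a paternally expressed noncoding RNA inside an intron of Trappc9, differed from its host in the same way. It was at 84.8, 88.0 and 84.0 against 37.1, 52.5 and 34.0 CPM, with a log2 change of 1.05 (SE 0.15, edgeR adjusted p = 0.000506). Trappc9, a trafficking complex subunit with maternal bias in brain, was at 53.5, 55.1 and 54.1 against 49.5, 53.5 and 58.4 CPM, and its log2 fold change of 0.01 had an interval from -0.15 to 0.18 (edgeR adjusted p = 0.888). The ratio of Peg13 to Trappc9 counts was 1.58, 1.60 and 1.55 in GFP-positive cells and 0.751, 0.983 and 0.583 in GFP-negative cells, without overlap (exact permutation p = 0.1, adjusted p = 0.158). Inpp5f, a phosphoinositide phosphatase imprinted in a single isoform, was higher by 0.39 (SE 0.05, edgeR adjusted p = 0.000538), at 94.2, 94.0 and 98.0 against 71.2, 76.5 and 70.6 CPM.

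**Figure D2:**
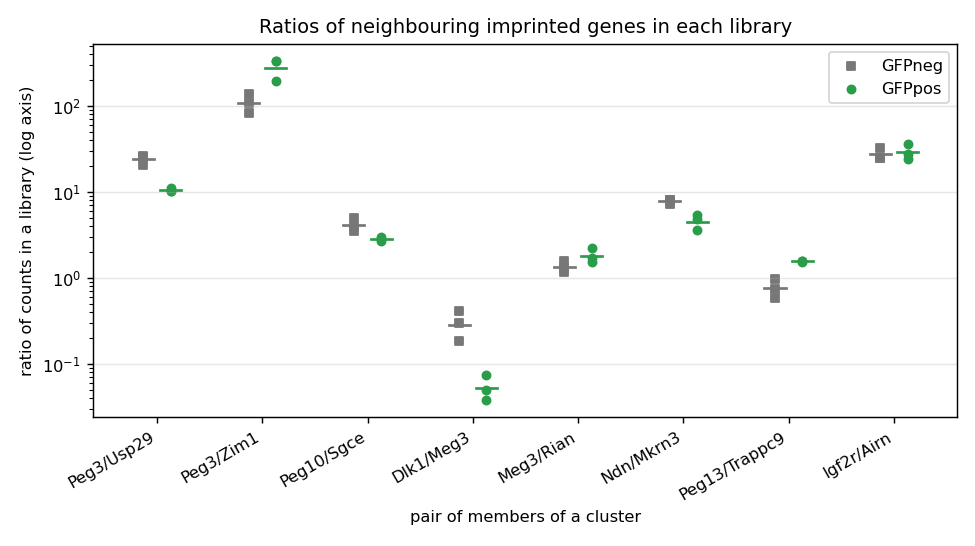
Ratios of counts between members of the same cluster (log vertical axis) in each library, with 0.5 counts added to each gene; squares are GFP-negative, circles GFP-positive, and lines are means on the log scale. Peg3/Usp29 and Peg13/Trappc9 are apart between the fractions, while Meg3/Rian and Igf2r/Airn overlap.

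Of the 19 pairs of tested cluster neighbours, 12 had ratios that did not overlap between the fractions. The share over other pairs of genes was not computed, and 64.2% of single genes did not overlap, so nothing particular to the clusters is read from that count. Meg3 and Rian were among the 7 that overlapped, at 1.53, 2.21 and 1.70 Meg3 counts per Rian count in GFP-positive and 1.18, 1.29 and 1.56 in GFP-negative cells (exact permutation p = 0.2, adjusted p = 0.292). Peg10 and Sgce moved the same way by different amounts, with ratios of 2.96, 2.86 and 2.70 against 5.04, 3.55 and 3.91.

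The remaining members stand alone. Rasgrf1, a paternally expressed Ras exchange factor of neurons, was at 0.354, 0.574 and 0.517 against 2.12, 2.17 and 2.203 CPM, with a log2 change of -2.15 (SE 0.26, edgeR adjusted p = 0.000258). It had the largest decrease of all tested members, from few counts, 13, 26 and 19 against 70, 68 and 68. Gnas, which encodes the stimulatory G protein alpha subunit and has several imprinted promoters, was lower by 0.42 (log2 fold change -0.42, SE 0.06, edgeR adjusted p = 0.000428), at 778, 818 and 802 against 1053, 1117 and 1044 CPM. Gene counts do not separate its transcripts. Impact, a regulator of translation, was at 42.4, 38.6 and 39.7 against 42.8, 43.2 and 48.6 CPM. The fractions of Impact did not overlap, but the difference of -0.16 did not pass the test (95% interval -0.33 to 0.01, edgeR adjusted p = 0.106).

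**Figure D3:**
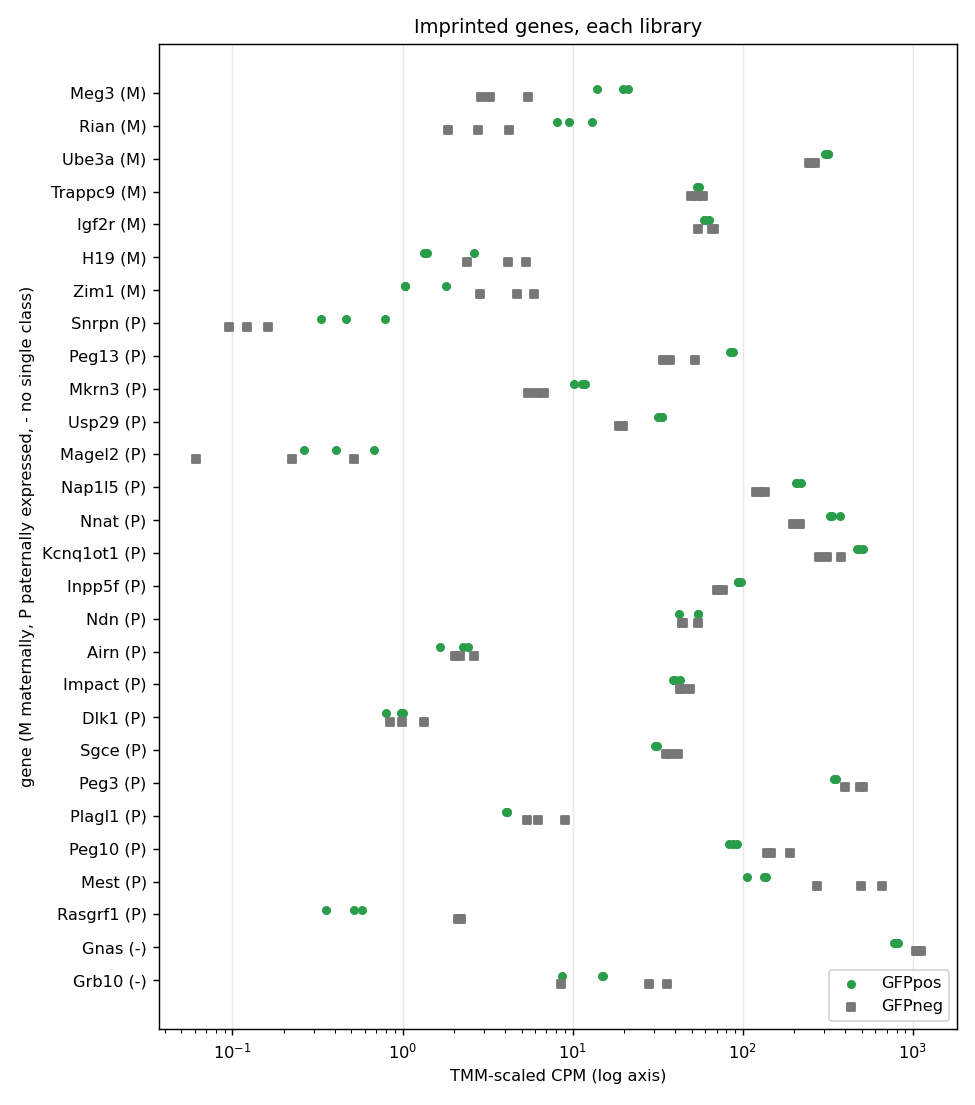
TMM-scaled CPM of the 28 tested imprinted genes in every library (log horizontal axis), with circles for GFP-positive and squares for GFP-negative libraries; M, P and a dash give the parental class. GFP-negative libraries of Mest, Grb10 and H19 are spread wide, and GFP-positive libraries of Peg3 and Plagl1 nearly coincide.

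Levels per kilobase, with exon lengths from GENCODE M21 rather than the annotation used for counting, spanned a wide range. In GFP-negative cells Mest stood at 120 CPM per kilobase, Nnat at 114, Gnas at 95.7 and Nap1l5 at 68.3. In GFP-positive cells the order was Nnat at 188, Nap1l5 at 114.5, Gnas at 71.5 and Mest at 31.7 CPM per kilobase. At the low end of tested genes, Magel2 stood at 0.0577 in GFP-negative and Rasgrf1 at 0.0435 in GFP-positive cells. Within groups, 21 of the 28 genes varied more among GFP-negative than among GFP-positive libraries, with median coefficients of variation of 13.2% and 6.46%. Over all genes 63.4% did, with medians of 9.50% and 6.82%.

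Of 28 tested genes for imprint maintenance and DNA methylation, 13 were higher and 3 lower in GFP-positive cells, with a median log2 fold change of 0.14, and 7 were higher without replicate 3. The share called, 57.1%, was near the 55.4% over all genes, but the split by direction was not. Of all tested genes, 26.1% were higher and 29.2% lower. Zfp57, the zinc finger protein that binds methylated imprint control regions, was at 81.3, 78.3 and 83.5 against 25.8, 27.1 and 23.4 CPM. It stood apart in size from the others of the list, at 3.19-fold (log2 fold change 1.67, SE 0.07, edgeR adjusted p = 2.23e-06). Its partner Trim28 was higher by 0.32, at 274 ± 10.2 against 220 ± 10.9 CPM (SD, n = 3), and the related Zfp445 by 0.20, a call lost without replicate 1 (adjusted p = 0.102) and without replicate 3 (0.0857). Ehmt1, a histone H3 lysine methyltransferase, and Arid4b, a chromatin protein, were higher by 0.47 and 0.52.

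The maintenance enzyme Dnmt1 was higher by 0.29, and Uhrf1, which brings it to replicated DNA, had a log2 change of -0.33. Dnmt3a, a de novo methyltransferase, had one of -0.29, and Mbd2, a reader of methylated DNA, -0.48. The calls of Dnmt1 (adjusted p = 0.063) and Dnmt3a (0.0855) were lost without replicate 3, and that of Uhrf1 without replicate 1 (0.0604). Dnmt3l and Dppa3, genes of germ cells and early embryos, were at 0 counts in all libraries. Yy1 did not pass the test, at 0.03 (edgeR adjusted p = 0.576), and Ctcf, the insulator protein of the H19 control region, was higher by 0.17, a call lost without GFP-positive replicate 3 (adjusted p = 0.0704), without replicate 1 (0.065) and without replicate 3 (0.17).

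**Figure D4:**
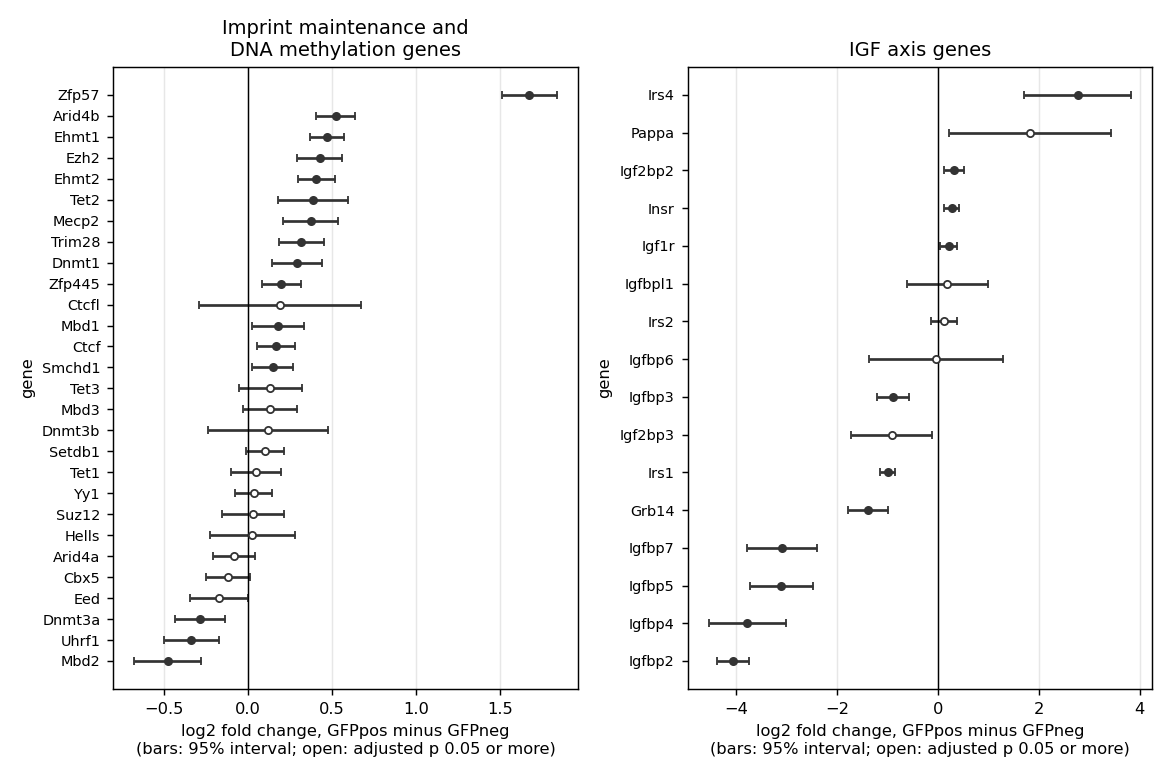
Log2 fold changes (GFP-positive minus GFP-negative) with 95% intervals of the tested genes for imprint maintenance and DNA methylation (left) and of the IGF axis (right), on different horizontal scales; open symbols have an adjusted p of 0.05 or more. Zfp57 lies at 1.67 and all other maintenance genes between -0.48 and 0.52, while Igfbp2 reaches -4.06.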

How the data were processed

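The deposited table gives raw, unscaled read counts for each gene, per the file headers. Per the submitters' processing notes, the mm39 build was used, with TopHat2 2.1.1 and featureCounts 2.0.0, beside SAMtools 1.9, bcl2fastq 2.20.0.422 and, for quality reports, MultiQC 1.9 with FastQC 0.11.8. Libraries came from the SMART-Seq Stranded kit, per the labels' protocols. Annotation, strand setting and duplicate handling were not given in the sources used here.

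Differences were tested with edgeR 4.0.16 (R 4.3.3) on all 6 libraries: TMM scaling, filterByExpr, quasi-likelihood F tests, then Benjamini-Hochberg adjustment over all 14554 tested genes, with adjusted p below 0.05 as the threshold. Each standard error was obtained from the fold change on the log2 scale and the F statistic, as their ratio after taking the root of F. Intervals for fold changes are at 95%. The steps were tested on simulated data with few changed genes, balanced in direction, and the same spread for every gene. That simulation does not cover differences as broad, or replicates as uneven, as those found here. DESeq2 1.42.0 was an alternative, beside RLE and upper-quartile scaling, no filter, a CPM filter, the replicate block and fits that left out libraries. Ratios of neighbouring genes added 0.5 counts and used an exact two-sided permutation test. Counts hold PCR copies, so depth covers counting error only.

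Replicates within a fraction were further apart than sampling of reads gives (chi-square over degrees of freedom 9.83 to 34.2). The labels do not say whether title numbers are animals or cultures, so p-values reflect only how these samples spread, and that spread may be technical. Libraries with the same number deviated together from their group means, with correlations of 0.288, 0.453 and 0.260. All were above 0.1, so the numbers were taken as a possible pairing of the libraries. Libraries with different numbers had correlations from -0.388 to 0.193, all below those of the same number, though 0.1 alone does not separate them. Reported values come from the fit with no such block, and the permutation tests of ratios ignore the pairing too. The blocked value is printed only for a call that it changes.

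The members and gene lists were chosen with earlier results of these data known. Named genes were all list members and, in each further list, called genes with the 3 smallest p in each direction; other genes named were chosen after their values were seen. Promoter and microRNA sequences are from RefSeq tables on GRCm38.p6, matched by symbol.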

Additional observations from a re-analysis of the deposited data

How the results depend on the processing

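Of the 28 tested members, 17 kept their direction and their side of the threshold under every alternative in which they were tested. Another 5 lost a call in at least 1 alternative (H19, Peg3, Sgce, Plagl1 and Snrpn), 1 gained a call (Grb10) and 5 uncalled genes changed sign. Other scaling, filters, DESeq2 and the replicate block changed no other member's call where it was tested. The CPM filter left Snrpn, Dlk1 and Magel2 untested, so 10 members were higher rather than 11. Magel2 was also untested without replicate 3. With the replicate block the median of members was -0.01, and Grb10 was called at -0.76. Leaving out libraries gave 2450 to 4169 higher genes in all, 1 to 3 lower maternally and 3 to 6 lower paternally expressed members, 7 to 15 higher maintenance genes and 1 to 5 higher IGF axis genes; the causes were not tested. The uncalled values ranged from -0.15 to 0.040 for Igf2r, -0.28 to 0.16 for Airn, -0.39 to 0.015 for Dlk1, -0.021 to 0.20 for Ndn and -0.043 to 0.084 for Trappc9, which was -0.0050 with upper-quartile scaling. Herc3, the uncalled host of Nap1l5, was -0.018 without GFP-negative replicate 1 and -0.011 without replicate 1. With few counts, Snrpn and Magel2 are measured less closely (SE 0.51 and 0.67). Rasgrf1 also had few counts, with an SE of 0.26, and 6 members could not be tested at this depth.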

Other observations

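A further list of 53 genes reported as imprinted in some tissue gave 9 higher and 10 lower of 31 tested (61.3% called, near the 55.4% over all genes), with a median log2 fold change of 0.07. The largest in significance on the lower side were Pon2, a paraoxonase, at 2.44 ± 0.041 against 31.1 ± 7.06 CPM (SD, n = 3), Gatm, an enzyme of creatine synthesis, at 79.1 ± 3.96 against 161 ± 1.61 CPM, and Cd81, a tetraspanin, at 229 ± 5.52 against 755 ± 144 CPM. On the higher side, Cobl, an actin nucleator, was at 41.0 ± 3.46 against 6.34 ± 1.71 CPM (SD, n = 3) and H13, a signal peptide peptidase, at 156 ± 2.34 against 111 ± 6.62 CPM. Slc22a3, a transporter gene near Igf2r, was higher by 3.67 from low counts, and Dhcr7, an enzyme of cholesterol synthesis, had a log2 fold change of -0.94.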
